A study of Homo sapiens with 6 samples.

Results

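Genes of the choroid plexus were followed in bulk RNA sequencing of human forebrain organoids. The 9 genes, listed by name, were TTR, KL, CLIC6, AQP1, FOLR1, PRLR, HTR2C, ENPP2 and TRPM3, of 18056 genes in the deposited table. No measured value entered the list's rule, and all 9 were found. All organoids were wild type and made with a dorsal forebrain protocol from 1 established line of induced pluripotent stem cells, DYR0100. The 3 vehicle libraries (0 µM) and the 3 libraries exposed to 5 µM Aβ42, the aggregation-prone amyloid-β peptide, were taken after 6 days and carry 1 batch label. The design sets exposed against vehicle-treated organoids.

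The choroid plexus is a secretory epithelium of the brain ventricles. It arises from the dorsal midline next to the cortical hem under BMP and WNT signals, makes cerebrospinal fluid by moving ions and water, and exports carrier proteins and vitamins. Its cells carry tufts of cilia and express OTX2, and transthyretin is their best known secreted product. In a dorsal forebrain organoid such cells can arise as a side product at the edge of cortical tissue. A bulk library gives 1 value per gene, so fewer cells of a type and less RNA per cell cannot be told apart.

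Levels are given as CPM (reads of a gene relative to the size of its library, adjusted by TMM, a method that evens out library composition) and, between genes, as the authors' TPM, which also divides by transcript length. Totals were 16465390 to 16742958 estimated counts per library. All 10 dorsal forebrain markers that were looked up had reads in every library. They summed to 2000 to 2027 CPM in vehicle and 1864 to 1990 CPM with Aβ42. Genes of other cell types had reads in every library too, so reads alone cannot test the dorsal forebrain label. Of 13842 genes tested for Aβ42 against vehicle, edgeR called 0 at an adjusted p-value under 0.05 (0%), although 3302 (23.9%) were under 0.05 before adjustment and DESeq2 called 804. The libraries numbered 2 stood apart in both groups, so each result below is also given within replicate numbers or without those libraries where that changes it.

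The sequences of 3 start regions are shown because HTR2C was lower with Aβ42 in every replicate number, and because the transcript length implied for TRPM3 varied between libraries. PRLR and KL were also lower in every number, but their start regions are not shown. RefSeq promoter windows (GRCh38.p14) were found for 5 of the 9 genes, with 7 windows in all. TRPM3 has 2 of them, whose start sites lie 325350 bases apart on the minus strand of chromosome 9. The windows below are the 250 bases before each start, 5′ to 3′. Capitals mark a CCAAT box (CCAAT, or ATTGG on the other strand), a common promoter element that 32.0% of 35116 such windows hold. TATAAA (10.7% of windows) and TAATCC, a core that OTX2 can bind (5.62% of windows), were searched on both strands as well, and neither occurs in these 3 windows. Of all 7 windows, 3 held a CCAAT box (HTR2C, PRLR and TRPM3), 2 held TATAAA (AQP1 and PRLR, not shown) and 0 held TAATCC. A match describes letters and is not a measured site.
HTR2C, chrX:114583836-114584085, plus strand: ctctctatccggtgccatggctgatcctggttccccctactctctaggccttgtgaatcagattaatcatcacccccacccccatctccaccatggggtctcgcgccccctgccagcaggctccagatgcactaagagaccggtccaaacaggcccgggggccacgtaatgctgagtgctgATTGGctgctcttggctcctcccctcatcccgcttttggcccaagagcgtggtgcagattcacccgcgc
TRPM3 outer start, chr9:71446972-71447221, minus strand: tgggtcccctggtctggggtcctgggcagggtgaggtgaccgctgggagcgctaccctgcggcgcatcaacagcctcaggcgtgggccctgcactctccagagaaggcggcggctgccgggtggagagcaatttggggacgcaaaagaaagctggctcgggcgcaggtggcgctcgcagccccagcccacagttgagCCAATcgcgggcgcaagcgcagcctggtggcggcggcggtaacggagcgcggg
TRPM3 inner start, chr9:71121622-71121871, minus strand: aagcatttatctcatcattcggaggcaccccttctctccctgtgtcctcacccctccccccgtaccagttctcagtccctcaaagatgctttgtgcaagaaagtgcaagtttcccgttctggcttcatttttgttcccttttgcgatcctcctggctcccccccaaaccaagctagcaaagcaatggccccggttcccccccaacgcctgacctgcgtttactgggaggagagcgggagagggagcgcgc

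TTR was by far the most abundant of the 9 genes. TTR (Entrez gene ID 7276, chr18:31591877-31598821) encodes transthyretin, the carrier of thyroid hormone and of the retinol-binding protein. In vehicle, replicates 1 to 3 had a TPM of 3299, 7487 and 3925. In Aβ42, they had 3605, 6581 and 2805. By TPM it ranked 4 in vehicle replicate 2 and 6 in Aβ42 replicate 2, counted from the most abundant gene. In the other 4 libraries its rank was 19 to 42.

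The other genes followed far below. Mean TPM over the 6 libraries was 23.2 ± 9.84 (SD, n = 6) for TRPM3, 22.8 ± 12.7 for ENPP2, 19.7 ± 10.2 for AQP1, 14.6 ± 7.81 for CLIC6 and 14.4 ± 8.08 for HTR2C. Neighbours in this order differed by less than their SD. FOLR1 followed at 7.72 ± 4.28, which is within 1 SD of HTR2C, then PRLR at 2.66 ± 1.46 and KL at 0.243 ± 0.131. TTR against TRPM3, FOLR1 against PRLR and PRLR against KL differed by more than the SD of either gene.

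A single library per group carried much of the level. In vehicle, replicate 2 was the highest of the 3 libraries for 8 of the 9 genes, and in Aβ42, replicate 2 was the highest for 6 of 9 by CPM and 8 of 9 by TPM. TTR had 391.4, 871.7 and 451.4 CPM in the vehicle libraries, in the order of their numbers, against 449.9, 805.8 and 353.5 CPM in the Aβ42 libraries. The replicate 2 value was 2.07 times the mean of the other vehicle libraries and 2.01 times that of the other Aβ42 libraries. Both libraries numbered 2 were therefore high, and the other 4 lay in 1 range with the groups mixed.

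For CLIC6 these ratios were 2.26 in vehicle and 2.29 in Aβ42, for HTR2C 2.25 and 2.32, and for PRLR 2.29 and 2.95. With TTR these are 4 of the 8 genes that passed the low-count filter for which replicate 2 was at least 1.5 times the mean of the others in both groups (a limit picked with these values known). Over all genes tested 0.881% did so. Replicate 2 was the highest of its group in both groups for 5 of the 8 genes, against 18.5% of all genes tested. FOLR1 reached ratios of 2.17 and 1.47 and ENPP2 1.90 and 1.40.

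AQP1 and TRPM3 had other patterns by CPM. AQP1 had its replicate 2 excess in Aβ42 (2.26) and not in vehicle (1.12), while TRPM3 had ratios of 1.23 and 1.06. Seen over all 6 libraries, vehicle replicate 2 held a median of 29.3% of a gene's summed CPM (range over the 9 genes 14.3% to 32.7%) and Aβ42 replicate 2 held 20.5% (9.35% to 31.9%), where equal shares would be 16.7%. The other 4 libraries had medians between 9.36% and 16.0%. The spread was wide for 7 of the 8 tested genes: their SD of log2 CPM over the 6 libraries was 0.55 to 0.85, larger than in at least 97.1% of genes tested, whose median SD was 0.12. TRPM3 had an SD of 0.20, larger than in 74.3% of genes tested.

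**Figure D1:**
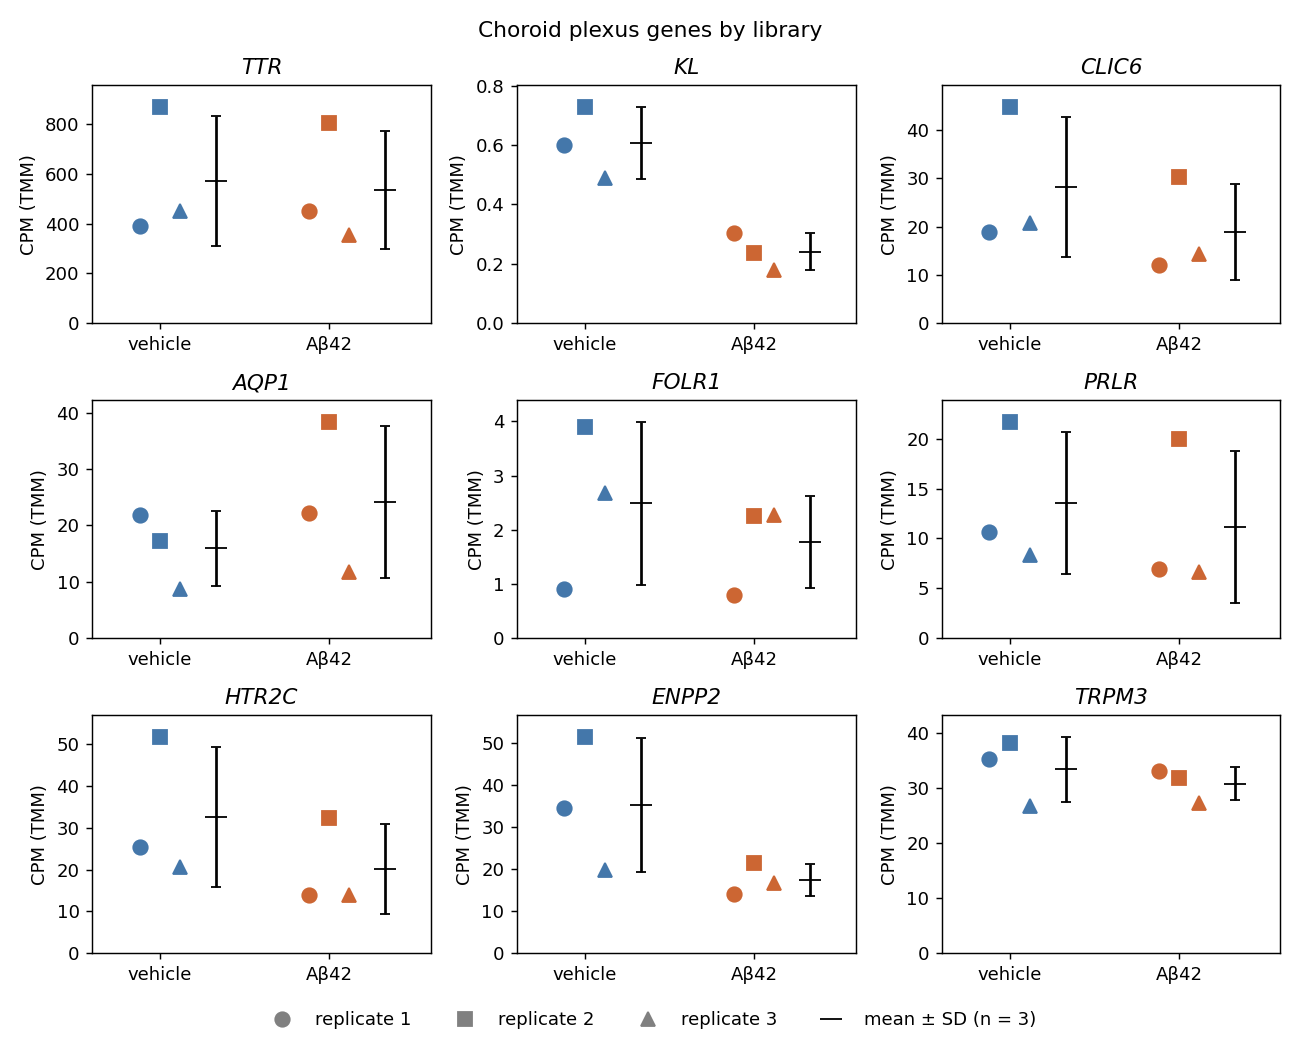
CPM of each of the 9 genes in the 3 vehicle and 3 Aβ42 libraries, with symbols for the replicate number and a bar for mean ± SD (n = 3), every vertical axis starting at 0. The squares for replicate 2 lie above the other symbols in both groups for TTR, CLIC6, PRLR, HTR2C and ENPP2, and the groups are separate only for KL.

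**Figure D2:**
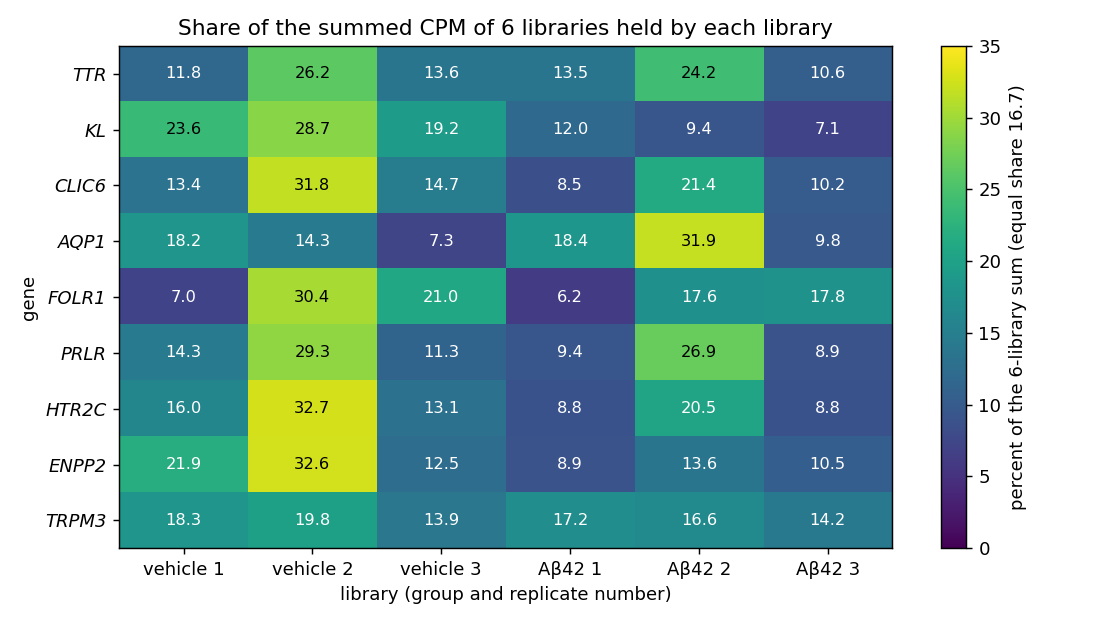
Each cell gives the percent of a gene's CPM, summed over 6 libraries, that 1 library holds; genes are rows and libraries columns. Vehicle replicate 2 holds between 14.3% (AQP1) and 32.7% (HTR2C), and Aβ42 replicate 2 holds up to 31.9% (AQP1).

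No choroid plexus gene passed the comparison of Aβ42 with vehicle without a block. With edgeR 0 of 8 genes had an adjusted p-value under 0.05 (background 0%), and 0 of 8 had an unadjusted p-value under 0.05 (background 23.9%). DESeq2 and limma-voom also called 0 of 8, with ENPP2 under an unadjusted 0.05 in DESeq2. The 3 Aβ42 values overlapped the 3 vehicle values for all 8 genes, while 13.4% of genes tested lay wholly lower and 13.6% wholly higher. Fold changes were below 0 for 7 of the 8 genes (49.3% of genes tested), with a median log2 fold change of -0.38 against 0.0032 for all genes.

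Setting the libraries of the same number side by side changed this picture for CLIC6 and HTR2C. CLIC6 (54102, chr21:34668994-34718223) encodes a chloride intracellular channel protein. The vehicle libraries 1 to 3 had 18.9, 44.8 and 20.8 CPM, and the Aβ42 libraries 12.01, 30.2 and 14.4 CPM. The Aβ42 value was the lower one in each number, at 0.636, 0.675 and 0.692 times vehicle. The groups overlapped because Aβ42 replicate 2 lay above vehicle replicates 1 and 3. Without a block the log2 fold change was -0.57 ± 0.55 (SE; adjusted p-value 0.568 by edgeR), and with the replicate number as a block it was -0.58 ± 0.08 (0.000309). CLIC6 thus passed in the blocked fit with the same size of difference and a smaller error.

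HTR2C (3358, chrX:114584086-114910061) encodes a serotonin receptor that is abundant on choroid plexus epithelium and also made by neurons. The vehicle libraries 1 to 3 had 25.4, 51.9 and 20.7 CPM, and the Aβ42 libraries 14.02, 32.5 and 13.98 CPM. Again the library numbered 2 was high in each group, and Aβ42 was the lower one in each number, at 0.552, 0.626 and 0.674 times vehicle. The log2 fold change was -0.69 ± 0.55 without a block (edgeR adjusted p-value 0.495) and -0.70 ± 0.08 with it (9.19e-05).

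With the block 2 of the 8 genes passed, where 14.2% of all genes tested did and 7.05% passed as lower. When both libraries numbered 2 were left out, CLIC6 (-0.59 ± 0.11, edgeR adjusted p-value 0.00432) and HTR2C (-0.72 ± 0.11, 0.00123) passed as lower, and PRLR did as well. That fit compares 2 libraries with 2, and 16.7% of all genes tested passed in it, 8.5% as lower. The libraries it leaves out were picked because they stood apart in these same data. Those it keeps also enter the blocked fit, so it is not separate support. Leaving out vehicle replicate 2 alone moved the log2 fold change of CLIC6 to -0.07 and that of HTR2C to -0.19, and leaving out Aβ42 replicate 2 alone moved them to -1.09 and -1.22. In neither of these fits did the genes pass.

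PRLR (5618, chr5:35048756-35230487), the prolactin receptor, had 10.6, 21.7 and 8.35 CPM in vehicle libraries 1 to 3, against 6.95, 19.95 and 6.60 CPM with Aβ42. Aβ42 was lower in each number, at 0.653, 0.919 and 0.790 times vehicle. Its log2 fold change was -0.28 ± 0.63 (edgeR adjusted p-value 0.822), -0.32 ± 0.12 with the block (0.0716) and -0.49 ± 0.15 without the libraries numbered 2 (0.0416). Without vehicle replicate 2 alone it turned to 0.24 (0.885).

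TTR showed no difference beyond the spread between libraries. The Aβ42 value was 1.15, 0.924 and 0.783 times vehicle in numbers 1 to 3, so the direction was mixed. Group means were 571.5 ± 261.7 CPM in vehicle and 536.4 ± 238.2 CPM with Aβ42 (SD, n = 3 each). The log2 fold change was -0.09 ± 0.49 (edgeR adjusted p-value 0.927) and -0.09 ± 0.10 with the block (0.617). Leaving out vehicle replicate 2 turned it to 0.35, leaving out Aβ42 replicate 1 or 3 to 0.02 or 0.14, and leaving out Aβ42 replicate 2 gave -0.51.

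ENPP2 (5168) encodes autotaxin, a secreted enzyme that makes the lipid signal lysophosphatidic acid and is also made by oligodendrocytes. It was at 34.5, 51.5 and 19.7 CPM in vehicle replicates 1 to 3 and at 14.1, 21.5 and 16.6 CPM with Aβ42. This was the largest difference among the 8 genes, with a log2 fold change of -1.02 ± 0.40 (edgeR adjusted p-value 0.211) and -0.97 ± 0.28 with the block (0.153). Aβ42 was at 0.408 and 0.417 times vehicle in numbers 1 and 2 and at 0.843 times in number 3. Vehicle replicate 3 thus lay within the Aβ42 range, and ENPP2 did not pass in any of 17 alternatives. Oligodendrocyte markers were close to absent: MOG, OLIG1, OLIG2, SOX10 and MOBP were each at 0.60 CPM or less, and MBP at 0.54 to 1.22 CPM. The 9 oligodendrocyte markers in the table summed to 81.5 to 87.2 CPM in vehicle and 74.8 to 83.6 CPM with Aβ42, most of it CNP, and their part in the result was not tested.

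FOLR1 (2348, chr11:72189709-72196323), the folate receptor that moves folate into cerebrospinal fluid, rested on 13 to 64 counts per library. It was at 0.901, 3.89 and 2.68 CPM in vehicle replicates 1 to 3 and at 0.792, 2.26 and 2.28 CPM with Aβ42. Here the libraries numbered 1 were low in both groups. Aβ42 was at 0.879, 0.580 and 0.849 times vehicle, with a log2 fold change of -0.48 ± 0.55 (edgeR adjusted p-value 0.621) and -0.46 ± 0.24 with the block (0.202).

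KL (9365, chr13:33016243-33066143) encodes klotho, a partner of fibroblast growth factor receptors, and was close to the limit of detection. It had 10, 12 and 8 counts in vehicle replicates 1 to 3 and 5, 4 and 3 counts with Aβ42. KL was the 1 gene of the 9 that the low-count filter removed, and the only one of the 9 whose groups did not overlap. Means were 0.606 ± 0.121 CPM in vehicle and 0.241 ± 0.0624 CPM with Aβ42 (SD, n = 3 each; exact permutation p-value 0.1, two-sided, the smallest that 3 libraries against 3 allow). Fitted without the filter it had a log2 fold change of -1.31 ± 0.48 and an adjusted p-value of 0.148 by edgeR.

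AQP1 (358, chr7:30911853-30925516) encodes the water channel of the apical membrane of choroid plexus cells. It was the 1 gene of the 8 with a fold change above 0. The vehicle libraries 1 to 3 had 21.9, 17.3 and 8.78 CPM, and the Aβ42 libraries 22.2, 38.4 and 11.8 CPM. Aβ42 replicate 2 stood above all other libraries, at 2.23 times vehicle replicate 2, while the ratio was 1.01 in number 1 and 1.34 in number 3. The log2 fold change was 0.59 ± 0.57 (edgeR adjusted p-value 0.571). It was 0.08 without Aβ42 replicate 2 and 0.14 without both libraries numbered 2.

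In total 5 of the 8 genes were lower with Aβ42 in all 3 numbers (CLIC6, FOLR1, PRLR, HTR2C and ENPP2), against 24.6% of genes tested, and 1 (AQP1) was higher in all 3, against 25.6%.

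**Figure D3:**
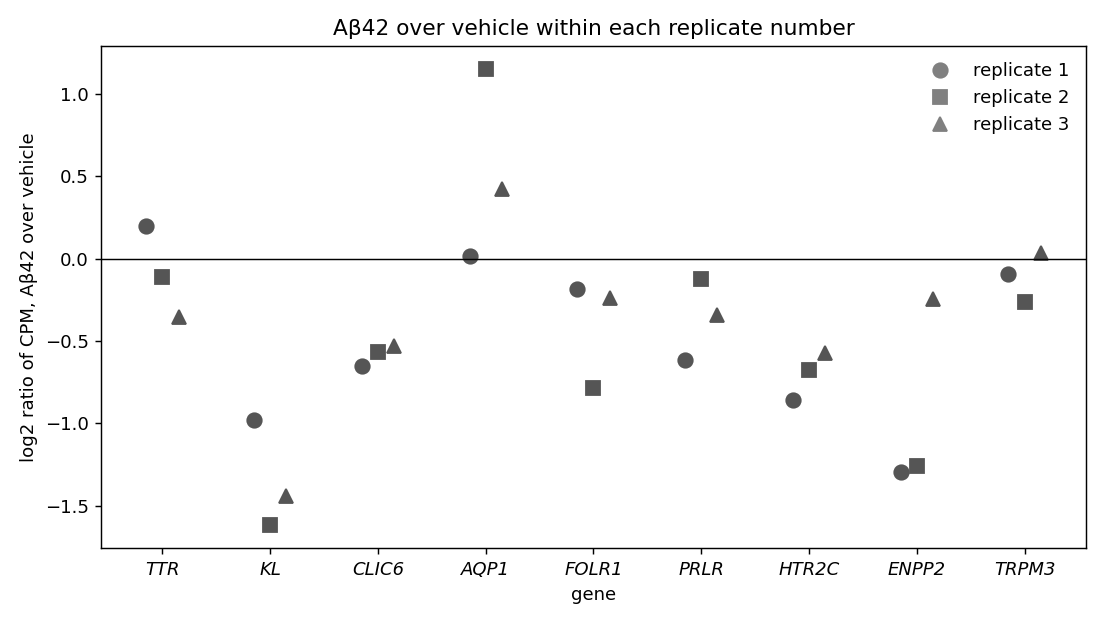
Log2 ratio of CPM, Aβ42 over vehicle, for each gene within replicate numbers 1, 2 and 3, with a line at no difference. The 3 symbols of CLIC6 and of HTR2C lie close together below the line (ratios 0.636 to 0.692 and 0.552 to 0.674), those of TTR lie on both sides, and AQP1 in number 2 is highest at 2.23.

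**Figure D4:**
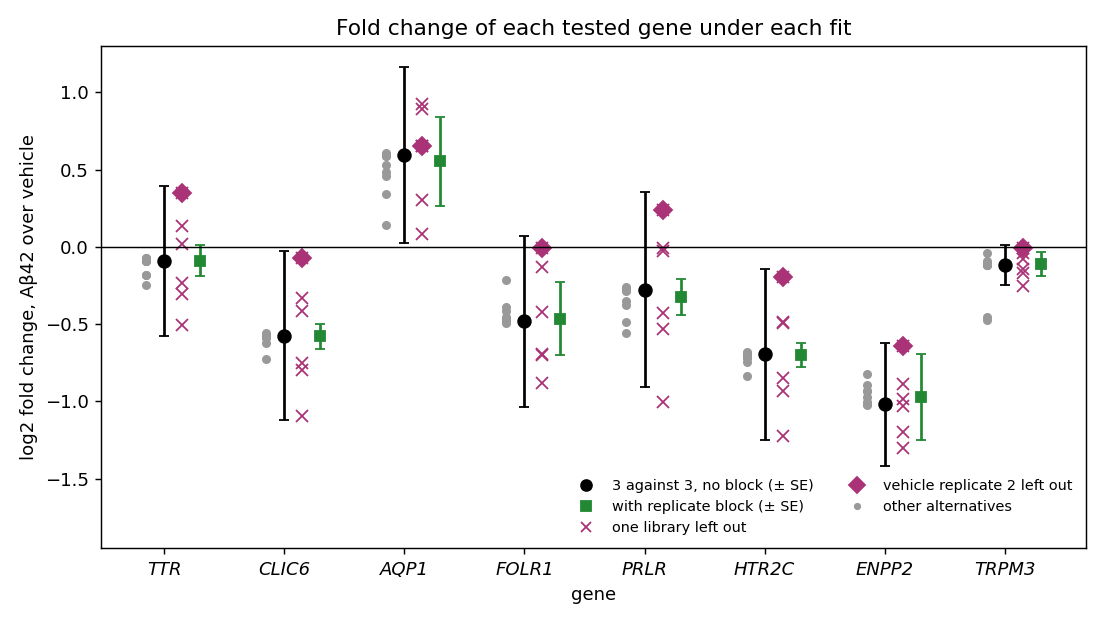
Log2 fold change of Aβ42 over vehicle for the 8 tested genes, with black points for 3 against 3 without a block and green squares with the replicate block (bars are ± SE), crosses for fits without 1 library and dots for other alternatives. Without vehicle replicate 2 (diamonds) TTR and PRLR lie above 0, and the bars of CLIC6 and HTR2C shorten with the block, from 0.55 to 0.08.

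TRPM3 gave a different picture in reads and in TPM. TRPM3 (80036, chr9:70529060-71446971) encodes a cation channel found in choroid plexus and also in neural cells, and it is the longest of these genes. Its CPM varied less than that of the other tested choroid plexus genes. It was at 35.2, 38.2 and 26.7 in vehicle libraries 1 to 3 against 33.03, 31.9 and 27.4 in the Aβ42 libraries, with none standing apart. The deposited TPM of the same libraries ran 24.9, 39.0 and 16.9 for vehicle against 13.8, 29.3 and 15.2 for Aβ42. On that scale the libraries numbered 2 were the highest of their groups, as they were for CLIC6 and HTR2C. Replicate 2 was 1.87 times the mean of the other vehicle libraries and 2.02 times that of the other Aβ42 libraries, against 1.23 and 1.06 in CPM.

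The number of reads behind 1 unit of TPM grows with the transcript length by which the authors' TPM divides. For TRPM3 vehicle libraries 1 to 3 had 23.5, 16.1 and 26.0 reads per unit, and the Aβ42 libraries 39.4, 18.4 and 30.1. After correction for each library's median this implied length spanned 2.36-fold over the 6 libraries. It was shortest in the libraries numbered 2 and longest in Aβ42 replicate 1. Of 11797 genes with at least 50 counts and a TPM above 1 in every library, 1 had a wider span, 0.0254% spanned at least 2-fold, and the median span was 1.02-fold. For the other 6 choroid plexus genes that met these minimums it was 1.001-fold to 1.056-fold.

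GENCODE release 29 lists 14 protein-coding TRPM3 transcripts of 554 to 12258 bases, and 16 for PRLR of 568 to 11688 bases, whose implied length spanned 1.04-fold. The table gives TRPM3 at the level of the gene, so the use of the 2 starts printed above was not tested. Between groups TRPM3 did not pass: its log2 fold change was -0.12 ± 0.13 (edgeR adjusted p-value 0.599) in counts and -0.45 on the log2(TPM + 1) scale (limma adjusted p-value 0.528).

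**Figure D5:**
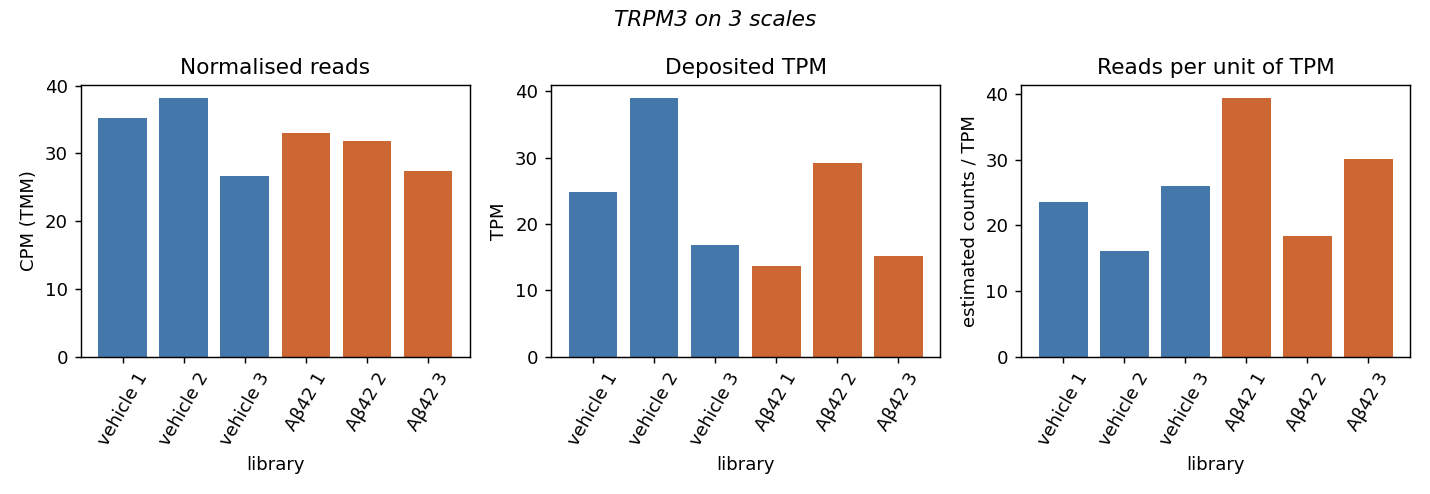
TRPM3 in the 6 libraries as normalised reads (CPM), as the deposited TPM and as estimated counts per unit of TPM, with bars from 0, vehicle in blue and Aβ42 in orange. The CPM bars lie between 26.7 and 38.2, whereas the TPM bars peak at 39.0 and 29.3 in the libraries numbered 2, where reads per TPM are lowest (16.1 and 18.4).

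Some, but not most, of a list of 40 further genes of the choroid plexus epithelium showed the same high libraries. Of the 40, 33 had enough reads to test, and 8 of these 33 had a replicate 2 at least 1.5 times the mean of the others in both groups (background 0.881%): OTX2, KCNJ13, SLC13A4, RBM47, F5, PTGDS, TMEM72 and SULF1. The excess was not particular to choroid plexus genes. It was met by 4 of 17 tested genes of the cortical hem and roof plate and 2 of 18 of multiciliated cells. It was also met by 2 of 6 retinal pigment epithelium and 2 of 10 astrocyte markers. For fibroblast and meningeal markers it was 1 of 6, and for endothelial markers 1 of 3. Dorsal forebrain and neuron markers had 0 of 10 each, and oligodendrocyte markers 0 of 4. OTX2, the transcription factor that choroid plexus identity depends on, was at 9.85, 16.2 and 7.20 CPM in vehicle replicates 1 to 3 and 4.14, 12.5 and 4.32 CPM with Aβ42. KCNJ13, an apical potassium channel, was at 3.42, 10.1 and 4.09 CPM and at 3.05, 7.01 and 2.46 CPM. Several named epithelial genes were near absent: KCNE2, CLDN3, STEAP1, WFDC2 and LBP each stayed at or below 0.60 CPM.

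Of these 33 genes 0 passed without a block by edgeR. Before adjustment 2 were under 0.05 as higher and 2 as lower, a smaller share than the 23.9% of all genes tested, with a median log2 fold change of -0.13 against 0.0032 for all genes. With the block 7 passed as lower and 1 as higher, where 7.05% of all genes tested passed as lower and 14.2% in either direction. Those lower were OTX2 (-0.72 ± 0.15, edgeR adjusted p-value 0.00612), the sulfate transporter SLC13A4 (-0.54 ± 0.09, 0.00131), the RNA-binding protein gene RBM47 (-0.68 ± 0.15, 0.00731), SLC12A2, SLC15A2, SLCO1C1 and CA2. ATP1B2, a sodium pump subunit, was the 1 higher (0.27 ± 0.05, 0.00394). By the naming rule, the genes with the smallest unadjusted p-values without a block were SLC12A2 (-0.31 ± 0.08, adjusted p-value 0.0734) and SLC15A2 (-0.62 ± 0.17, 0.0939) lower, and ATP1B2 (0.27 ± 0.10, 0.163) and SLC4A5 (0.28, 0.178) higher. SLC12A2 and SLC15A2 are also expressed by neural cells.

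The cortical hem and roof plate list, the tissue next to which choroid plexus forms, had 17 of 22 genes tested. Without a block 0 passed by edgeR (2 higher and 5 lower at an unadjusted p-value under 0.05), and with the block 5 passed as lower and 1 as higher. Over all genes tested these shares were 23.9% for the unadjusted p-value and, with the block, 14.2% in either direction and 7.05% as lower. The lower ones were WNT5A, WNT8B, RSPO2, RSPO3 and LMX1A, and the higher one was BMP7. WNT8B, a WNT ligand of the cortical hem, was at 4.93, 5.11 and 4.57 CPM in vehicle replicates 1 to 3 and 1.71, 3.74 and 1.80 CPM with Aβ42, so its groups did not overlap (log2 fold change -1.01 ± 0.27, edgeR adjusted p-value 0.0856, and 0.00494 with the block). RSPO2, a WNT agonist, was at 13.2, 21.3 and 9.82 CPM and at 3.66, 12.1 and 3.18 CPM (-1.22 ± 0.61, 0.299, and 0.00167 with the block). WNT5A (-1.31 ± 0.30, 0.0734) and BMP7 (0.29 ± 0.05, 0.0684) also had separate groups, and BAMBI was at 0.46 (0.191). Groups lay apart for 4 of the 17 genes as lower and 2 as higher, against 13.4% and 13.6% of all genes tested.

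Of 22 genes of multiciliated cells 18 were tested. Without a block 0 passed by edgeR (0 higher and 1 lower at an unadjusted p-value under 0.05), and with it FOXJ1, the master regulator of motile cilia, and PIFO passed as lower. These 2 of 18 are a larger share than the 7.05% of all genes tested that passed as lower. They are a smaller share than the 14.2% that passed in either direction. The 1 of 18 before adjustment stands beside 23.9%. FOXJ1 was at 1.44, 4.56 and 1.89 CPM in vehicle replicates 1 to 3 and 0.548, 2.67 and 0.900 CPM with Aβ42, with ratios in the numbers of 0.380, 0.586 and 0.476. The libraries numbered 2 were again the high ones. PIFO had a log2 fold change of -0.64 ± 0.27 (edgeR adjusted p-value 0.175), and CCDC40, RFX2 and RFX3 lay between -0.12 and 0.14.

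Partners in the pathways of the 9 genes were measured for 29 of 30 listed, of which 23 were tested. Without a block 0 passed by edgeR (3 higher and 3 lower at an unadjusted p-value under 0.05), and with it 5 passed as lower and 1 as higher. Over all genes tested 23.9% had such an unadjusted p-value, and with the block 7.05% passed as lower and 14.2% in either direction. Among the lower ones were STRA6, the cell-surface receptor for the retinol-binding protein that transthyretin carries (-0.34 ± 0.10, edgeR adjusted p-value 0.0351), LPAR1, a receptor for the lipid that autotaxin makes (-0.46 ± 0.11, 0.0101), the folate transporter SLC46A1 (-0.32 ± 0.09, 0.0257) and the G protein GNAQ. SOCS2, a target of prolactin receptor signalling, was the higher one (0.38 ± 0.10, 0.0160). By the naming rule ADAM17, a protease that sheds klotho, was also listed, at 0.16 ± 0.05 without a block (0.121). The ligands FGF23 and PRL had at most 0.18 CPM in any library, close to the 0.182 CPM that 3 counts give.

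Genes whose profile over the 6 libraries lay closest to that of TTR were named by the root mean square difference of log2 CPM, each gene centred on its own mean. Among the 5 nearest were IL13RA1 (0.15), PLD5 (0.16), NWD1 (0.17) and SLC27A2 (0.17). Among the choroid plexus genes PRLR (0.29) and CLIC6 (0.31) lay nearest to TTR and FOLR1 (0.65) farthest. For the mean profile of the 8 tested genes the closest were IL13RA1 (0.10), CLDN19 (0.11), AVEN (0.12), IGFBP7 (0.14) and ITPRIPL2 (0.14). These values describe 6 libraries that share the high libraries numbered 2. Some of the genes rested on few reads. PLD5 lay at 0.42 to 1.37 CPM, SLC27A2 at 0.84 to 2.19, CLDN19 at 1.08 to 3.28 and ITPRIPL2 at 1.40 to 3.34 CPM. NWD1 lay at 4.21 to 8.21 CPM and IGFBP7 at 12.8 to 32.2 CPM. Counting error thus enters the likeness of the low ones.

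Markers of other cell types that share some of these genes were read beside them. The retinal pigment epithelium also makes TTR, and its 10 markers, all in the table, summed to 29.5 to 44.0 CPM in vehicle and 29.7 to 52.6 CPM with Aβ42, highest in the libraries numbered 2. Of the 6 tested, 5 had a fold change above 0 and 1 below (median log2 fold change 0.30), and 0 passed without a block by edgeR, also at an unadjusted p-value under 0.05. SERPINF1, the largest part of the sum, was at 16.8, 24.9 and 13.8 CPM in vehicle libraries 1 to 3 and 18.1, 34.6 and 13.3 CPM with Aβ42. The peak of the sum in Aβ42 replicate 2 came from SERPINF1. Only 2 of the 6 tested, SERPINF1 and RPE65, were highest in number 2 in both groups. The 1 below 0 was RPE65, at 2.10, 6.57 and 2.44 CPM in vehicle replicates 1 to 3 and 1.58, 3.21 and 1.38 CPM with Aβ42 (-0.84 ± 0.53, edgeR adjusted p-value 0.372), and it passed as lower with the block (-0.81 ± 0.21, 0.0174). DCT and LRAT had log2 fold changes of 0.68 and 0.53 without a block, and TYR, PMEL, TYRP1 and RLBP1 were at 0.54 CPM or less. Of 8 measured liver and endoderm markers, AFP, APOA2 and FOXA2 had 0 counts in all libraries, which allows up to 0.182 CPM, and the sum was at most 0.781 CPM.

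Fibroblast and meningeal markers, 10 of 10 in the table, summed to 46.0 to 84.3 CPM in vehicle and 38.0 to 49.4 CPM with Aβ42, highest in the libraries numbered 2. Of the 6 tested, 3 had a fold change above 0 and 3 below. DCN, which encodes decorin, was the largest in vehicle, at 27.2, 58.6 and 23.4 CPM in vehicle replicates 1 to 3 and 12.1, 24.2 and 12.1 CPM with Aβ42. The high sums in the libraries numbered 2 and the lower sums with Aβ42 came mainly from DCN. It was the 1 of the 6 tested genes with a replicate 2 at least 1.5 times the mean of the others in both groups. DCN had a log2 fold change of -1.17 ± 0.52 (edgeR adjusted p-value 0.263) and of -1.15 ± 0.08 with the block (2.28e-06). In Aβ42 replicates 1 and 3 PDGFRB was the larger one. PDGFRB was at 17.5, 17.27 and 17.26 CPM in vehicle and wholly higher with Aβ42, at 18.95, 18.94 and 20.9 CPM (0.18 ± 0.08, 0.212). FOXD1, at 2.01 CPM or less, passed as higher with the block (1.302 ± 0.34, 0.0189), and PDGFRA had a log2 fold change of -0.44 without it (0.236). COL1A1, COL1A2 and COL3A1 stayed at or below 1.71 CPM. Endothelial markers summed to 2.74 to 5.17 CPM in vehicle and 2.58 to 4.81 CPM with Aβ42, with PECAM1 and CDH5 at 0.12 CPM or less and ERG at 0. Astrocyte markers, 5 of 10 with a fold change above 0 and 5 below, summed to 1673 to 1739 CPM and to 1575 to 1727 CPM. With the block 3 of the 10 passed as lower (S100B, SLC1A3 and GJA1) and 1 as higher (ALDOC). Of all genes tested 7.05% passed as lower with the block and 14.2% in either direction. The part of these other cell types in the choroid plexus results was not tested.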

How the data were processed

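The members and lists were chosen with earlier results of these data known. Per the file headers, the authors deposited read counts and TPM values for every gene in each of the 6 libraries. The submitters' processing notes name FastQC, STAR 2.7.11b, featureCounts 2.0.6 and GRCh38; the annotation and strand setting are not given in the sources used here. Only 86.9% to 87.5% of the deposited counts were whole to within 1e-09, so they were treated as estimated counts and rounded; those of the 9 genes were all whole. The deposited TPM was made by the authors, and how its lengths were set is not given in the sources used here. Libraries were stranded, polyadenylated and PCR-amplified per the labels' protocols, with no molecular identifiers mentioned, so counts carry counting error and amplification alike.

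Genes were kept by filterByExpr of edgeR 4.0.16 (minimum count 10), scaled by TMM and compared by the two-sided quasi-likelihood test with robust dispersion in R 4.3.3, adjusted by Benjamini-Hochberg over all 13842 genes. Each SE was obtained from the fold change and the F statistic. limma 3.58.1, DESeq2 1.42.0, other scalings, filters, TPM scales (pseudocounts 1 and 0.1), a replicate block and leaving out libraries were alternatives, 17 in all. The model was also run on simulated counts without a shared effect of replicate number. Such counts cannot show how the block performs on these data. No 2 libraries agreed within sampling noise (chi-square per gene 3.16 to 21.2). The labels do not say that replicates are separate cultures, beyond the design text's biological replicates, nor that a number marks a shared culture or day.

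The check of the pairing correlated deviations from group means over 12187 genes. It gave 0.198, 0.411 and 0.133 for numbers 1, 2 and 3, all above 0.1. The main fit has no block, and ratios and fits by number are given beside it. The pairing comes from the data alone: numbers 1 and 3 correlated across each other at a similar size (0.208 and 0.157). Deviations within a group cancel out, so the correlation for number 2 itself raises the values among numbers 1 and 3. The check thus sets number 2 apart but cannot tell whether numbers 1 and 3 are paired rightly. Fits with the block rest on that pairing. Named genes are the 9 members, up to 2 genes per direction with the smallest p-value in each list, and the 5 genes nearest to TTR and to the mean profile; a few of these or of the listed genes are not reported here. Further genes that passed with the block or had high libraries numbered 2 were named after their values were seen. Loci and promoters are RefSeq's, GRCh38.p14.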

Additional observations from a re-analysis of the deposited data

How the results depend on the processing

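The count of genes called over the whole table was 0 in most fits and became 360 with no filter on low counts, 804 with DESeq2, 2543 with sample quality weights, 1962 with the replicate block and 2316 with both libraries numbered 2 left out; it ran from 0 to 3224 across the fits without 1 library, with calls only without Aβ42 replicate 2. The cause was not tested. Of the 8 tested choroid plexus genes 2 were called with the replicate block (CLIC6 and HTR2C) and 3 without both libraries numbered 2 (these and PRLR), and 0 in the other 15 alternatives. The block changed no other call among the 8. TTR ran from -0.51 to 0.35 and PRLR from -1.001 to 0.24 across the fits without 1 library, so both turned direction. TTR's share in vehicle replicate 2 was 26.2% of the 6-library CPM and 27.0% of TPM. With TPM in place of counts, at pseudocounts of 1 and 0.1, CCDC40 (-0.055 and -0.064), EMX1 (-0.061 and -0.063) and MBP (-0.054 and -0.12) turned direction. Without 1 library MBP ran from -0.16 to 0.47 and TEK from -0.17 to 0.31. KL, at 3 to 12 counts, is limited by depth.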

Other observations

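Relatives of the choroid plexus genes had their own levels. Of 30 listed family members 28 were measured and 15 tested, of which 0 passed without a block by edgeR (3 higher and 1 lower at an unadjusted p-value under 0.05, close to the 23.9% of all genes tested). With the block 3 passed as higher and 1 as lower, where 14.2% of all genes tested passed in either direction, and 3 had wholly higher groups, against 13.6%. TRPM4, a calcium-activated channel of the TRPM3 family, was at 22.1, 20.5 and 22.7 CPM in vehicle replicates 1 to 3 and 36.6, 25.5 and 34.2 CPM with Aβ42, with no overlap (log2 fold change 0.56 ± 0.12, edgeR adjusted p-value 0.0734, and 0.000674 with the replicate block). ENPP5, in the family of ENPP2, was also wholly higher with Aβ42 (0.56, 0.0891, and 0.0138 with the block), as was HTR2B (1.20, 0.121, and 0.0462 with the block), a serotonin receptor related to HTR2C at 1.28 CPM or less. CLIC4 was lower with the block (-0.22 ± 0.06, 0.0146) and AQP4 was at -0.60 ± 0.32 without it (0.277). In 2 of the 15 replicate 2 was at least 1.5 times the mean of the others in both groups (background 0.881%). These were KLB, related to KL, and GHR, related to PRLR, at no more than 19 and 39 counts in any library. GHR was at 1.32, 2.37 and 1.04 CPM in vehicle replicates 1 to 3 and 1.28, 1.96 and 0.780 CPM with Aβ42.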
